A study of Mus musculus with 6 samples.

Results

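The 8 genes described here encode the core enzymes of the hepatic methionine cycle and its folate, phospholipid and cysteine branches: Mat1a, Gnmt, Pemt, Ahcy, Bhmt, Cbs, Cth and Shmt1. They were chosen by name, and all 8 were found among the 14002 genes listed for each liver. The samples are livers of 6 C57BL/6 mice that received a 60% high-fat diet for 8 weeks, with an age label of 8 weeks that does not say whether it was taken before or after the diet. In 3 mice the genotype was wild type, and in 3 it was a hepatocyte knockout of let7b/c2, called LKO, that is, of the genes for let-7b and let-7c-2. Both groups shared the strain, the diet and the tissue, and the knockout is labelled as restricted to hepatocytes, while whole liver RNA was sequenced, so RNA of other liver cells is in every library. How the deletion was made is not given in the sources used here, and it was not checked here, because the libraries measured messenger RNA and not mature microRNAs.

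In the methionine cycle, methionine is activated to S-adenosylmethionine (SAM), the methyl donor of most methylation reactions. Each methyl transfer leaves S-adenosylhomocysteine, which is split to homocysteine. Homocysteine is then either methylated back to methionine or led into transsulfuration, which makes cysteine. The liver is the main site of methionine metabolism, and most of these enzymes are abundant in hepatocytes. The series title names PPARα, let-7 microRNAs and hepatic lipid metabolism, and LKO livers are compared here with wild type livers for the transcripts of this cycle.

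The mature sequences encoded by the deleted genes are shown because their seed, bases 2 to 8, sets which messenger RNAs they can pair with. Whether other genes still supply the same sequence or seed in LKO livers was not tested. They are from RefSeq (GRCm38.p6), 5′ to 3′, with the seed in capitals.
let-7b (chr15:85707325-85707346, plus strand): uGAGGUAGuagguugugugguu
let-7c, from let-7c-2 (chr15:85706616-85706637, plus strand): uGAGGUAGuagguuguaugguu
They differ at 1 of 22 bases, G17A counted from the 5′ end with let-7b first, so the seed is the same in both.

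None of the 8 genes held a match to this seed in its longest annotated 3′ untranslated region. The matches searched, on the transcript strand only, were the 8mer CTACCTCA and the 7mers CTACCTC and TACCTCA where they were not part of an 8mer. The regions of the 8 genes ran from 136 bases in Gnmt to 4296 in Cbs, with a median of 920.5 bases against 1167 bases over the 10703 tested genes with an annotated region. Of those 10703 genes, 17.0% held a match of any of the 3 kinds and 3.67% held the 8mer. The absence of a match says only that these letters are not in these regions.

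All 8 transcripts were abundant, and none of them was called different between LKO and wild type livers. The deposited value is a library-scaled expression signal, in which 3 estimated reads were worth 0.331 to 0.447 units, and libraries held 8549483 to 10764825 estimated reads. The 8 genes ranked between 36 and 577 by mean signal among 11168 tested genes, with 1453 to 50307 estimated reads per gene and library. The test was limma on log2(signal + 1), with p-values adjusted over all tested genes by the Benjamini-Hochberg method and a threshold of 0.05. By this test 3.51% of all genes were called, 1.82% raised and 1.69% lowered in LKO, and 18.4% had an unadjusted p under 0.05. Of the 8 genes, 0 were called in limma, 0 had an unadjusted p under 0.05, and 0 were called by limma-voom. Their adjusted p-values ran from 0.412 to 0.781. For each of the 8 the 3 LKO values overlapped the 3 wild type values. Over all tested genes 24.2% had no overlap, so most genes overlapped as these 8 did. In whole liver, fewer cells of a type and less RNA per cell cannot be told apart.

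**Figure D1:**
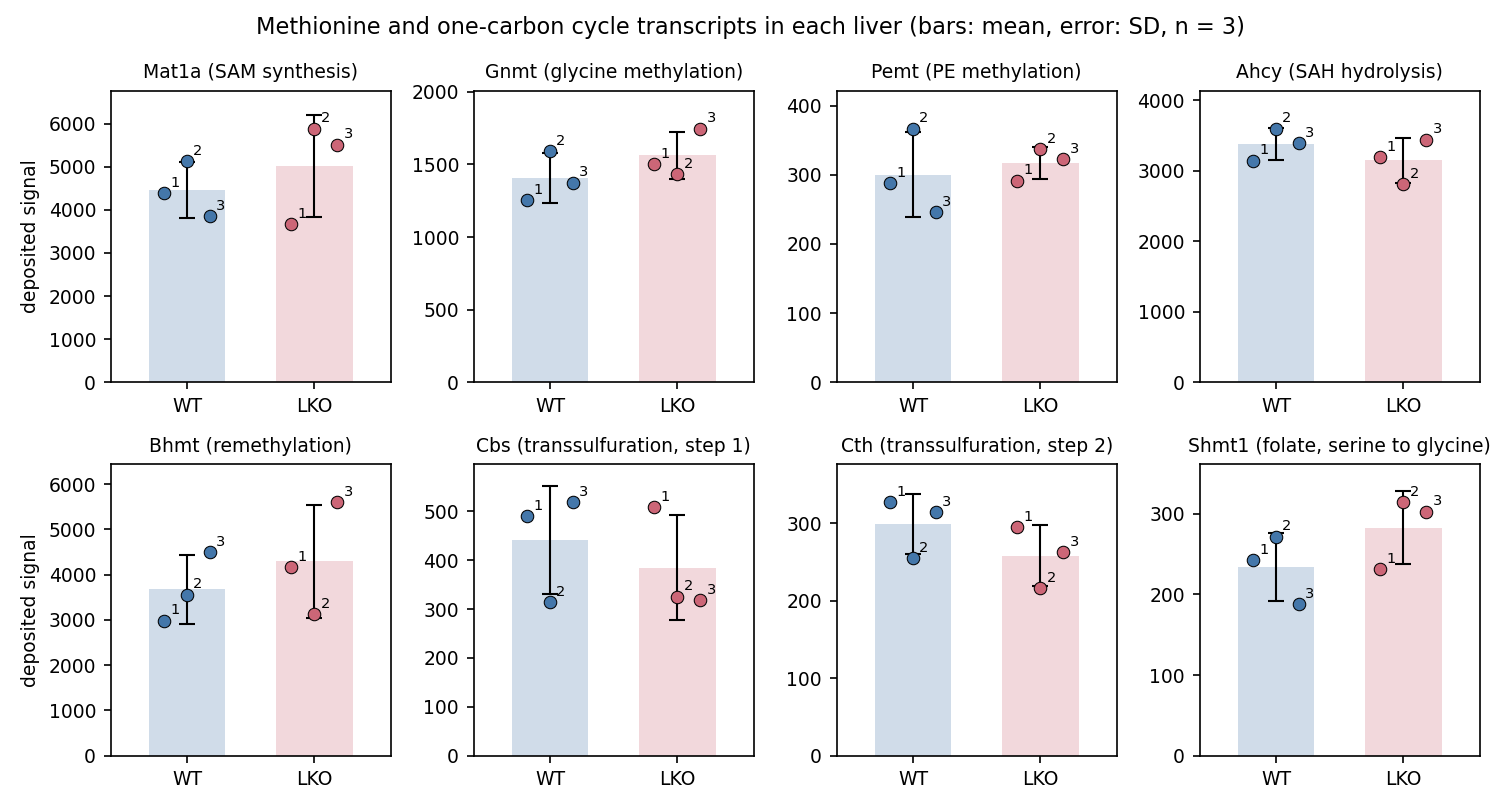
Deposited signal (linear axis from 0) of each of the 8 genes in the 3 wild type (WT, blue) and 3 LKO (red) livers. Points are livers with their replicate number, bars are group means and error bars are SD with n = 3. In every panel the red points overlap the blue points.

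Mat1a (chromosome 14, 41105035 to 41124412, GRCm38) encodes the liver form of methionine adenosyltransferase, which makes SAM. Its signal was 4382, 5137 and 3851 in wild type livers 1, 2 and 3 and 3678, 5890 and 5519 in LKO livers 1, 2 and 3. LKO liver 1 was the lowest of the 6 and the other two LKO livers were the highest, so the wild type values lay inside the LKO range. Group means were 4457 ± 646 in wild type and 5029 ± 1184 in LKO (SD, n = 3). The log2 fold change, LKO minus wild type here and throughout, was 0.15 (limma, SE 0.22 and adjusted p 0.761).

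Mat2a encodes the form of the enzyme found mainly outside the liver. Its mean signal was 58.2 ± 7.91 in the wild type livers and 58.1 ± 6.57 in the LKO livers (SD, n = 3). The log2 ratio of Mat1a to Mat2a, each with 1 unit added, was 6.07, 6.67 and 5.96 in wild type livers 1 to 3 and 6.13, 6.49 and 6.54 in LKO livers 1 to 3. Its mean was 6.23 ± 0.39 in wild type and 6.39 ± 0.22 in LKO, a difference of 0.15 with p = 0.7 in a two-sided exact permutation test. With 3 livers against 3 this test cannot go below 0.1. With 1 liver left out the difference ran from 0.02, without wild type liver 3, to 0.38, without wild type liver 2, and it was 0.07 without wild type liver 1, 0.08 without LKO liver 3 and 0.28 without LKO liver 1.

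Gnmt and Pemt use SAM. Gnmt (chromosome 17, 46725664 to 46729168) encodes glycine N-methyltransferase, which uses up surplus SAM by methylating glycine to sarcosine. Its signal was 1253, 1594 and 1374 in wild type and 1504, 1435 and 1747 in LKO. LKO liver 3 was the highest and wild type liver 1 the lowest, and wild type liver 2 exceeded the other two LKO livers. Means of 1407 ± 173 and 1562 ± 164 gave a log2 fold change of 0.15 (limma, SE 0.15 and adjusted p 0.626).

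Pemt (chromosome 11, 59970614 to 60046489) encodes phosphatidylethanolamine N-methyltransferase, which makes phosphatidylcholine in hepatocytes by methylation. Wild type livers 1, 2 and 3 had 288, 367 and 246 units of Pemt signal, and LKO livers 1, 2 and 3 had 291, 337 and 323. The LKO values lay within the wild type range, and their coefficient of variation was 7.38% against 20.5% in wild type. The log2 fold change was 0.10 (limma, SE 0.15 and adjusted p 0.781).

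Ahcy (chromosome 2, 155059310 to 155074497) encodes the hydrolase that splits S-adenosylhomocysteine. Its signal was 3145, 3598 and 3388 in wild type and 3196, 2810 and 3440 in LKO. LKO liver 2 was the lowest of the 6, and the other two LKO livers fell inside the wild type range. The coefficient of variation, 6.72% in wild type and 10.1% in LKO, was the smallest of the 8 genes in wild type and the second smallest in LKO. Means of 3377 ± 227 and 3149 ± 318 gave a log2 fold change of -0.10 (limma, SE 0.16 and adjusted p 0.776).

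Bhmt (chromosome 13, 93616675 to 93637961) encodes betaine-homocysteine methyltransferase, which returns homocysteine to methionine with a methyl group from betaine. Its signal was 2983, 3557 and 4498 in wild type and 4160, 3126 and 5604 in LKO. The highest value was in LKO liver 3 and the lowest in wild type liver 1, while LKO liver 2 was lower than 2 of the 3 wild type livers. With means of 3680 ± 765 and 4297 ± 1245, the log2 fold change was 0.20 (limma, SE 0.24 and adjusted p 0.703). Without LKO liver 3 it was -0.01.

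Ahcy and Bhmt have near-identical annotated copies in the mouse genome, between which reads can be split. For Ahcy these are Gm4737 and Gm9826, with 99.7% and 99.2% identity over 2083 and 1299 aligned bases. The signal listed for Gm4737 was 2.24% to 2.94% of that of Ahcy in the same liver, and for Gm9826 it was at most 0.450%. For Bhmt they are Gm5096 and Bhmt-ps1, listed at 2.05% to 2.51% and at most 0.380% of the Bhmt signal. With the copies added to each gene, an alternative chosen after seeing the data, the log2 fold changes were -0.11 for Ahcy and 0.20 for Bhmt.

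Cbs and Cth form the transsulfuration branch. Cbs (chromosome 17, 31608894 to 31637238) encodes cystathionine beta-synthase, which joins homocysteine to serine. Its signal was 490, 315 and 519 in wild type and 508, 326 and 319 in LKO. In each group the values fell into a high and a low set: wild type livers 1 and 3 and LKO liver 1 were high, and wild type liver 2 and LKO livers 2 and 3 were low. The log2 fold change was -0.20 (limma, SE 0.23 and adjusted p 0.683), and leaving out 1 liver at a time moved it between -0.43 and -0.07.

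Cth (chromosome 3, 157894248 to 157925077) encodes cystathionine gamma-lyase, which releases cysteine from cystathionine. Cth signal was 327, 255 and 314 in wild type livers 1, 2 and 3 and 294, 216 and 263 in LKO livers 1, 2 and 3. Wild type livers 1 and 3 were above all LKO livers, and wild type liver 2 was below 2 of the 3. Means of 299 ± 38.6 and 258 ± 39.2 gave the lowest log2 fold change of the 8 genes, -0.21 (limma, SE 0.15 and adjusted p 0.475).

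Shmt1 (chromosome 11, 60788104 to 60811718) encodes the cytosolic serine hydroxymethyltransferase, which passes a carbon from serine to tetrahydrofolate. Its signal was 243, 272 and 188 in wild type and 231, 315 and 303 in LKO. LKO livers 2 and 3 were above the wild type livers, and LKO liver 1 was below 2 of the 3. Means of 234 ± 42.7 and 283 ± 45.0 gave the highest log2 fold change of the 8, 0.28 (limma, SE 0.16 and adjusted p 0.412). The annotated Shmt1 locus overlaps Smcr8 on the opposite strand, and the 2 genes share 184 bases of transcript. The strand setting of the counting is not given in the sources used here, so reads from the shared stretch may not have been separated, although the libraries were stranded. Smcr8 itself was listed at 31.3 to 52.7 units, with a log2 fold change of 0.40 (limma, SE 0.14 and adjusted p 0.164).

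The precision of these livers sets what differences the data leave possible. The 95% intervals of the log2 fold changes, from limma, were -0.34 to 0.65 for Mat1a, -0.18 to 0.48 for Gnmt, -0.24 to 0.43 for Pemt and -0.46 to 0.25 for Ahcy. They were -0.34 to 0.75 for Bhmt, -0.70 to 0.30 for Cbs, -0.54 to 0.11 for Cth and -0.09 to 0.65 for Shmt1. In linear terms the outermost bounds were a fold of 0.614, for Cbs, and 1.68, for Bhmt. A change of 2-fold in either direction therefore lay outside the interval of each of the 8 genes. The same held for 9555 of the 11168 tested genes, so it does not set these 8 apart. The median log2 fold change of the 8 was 0.12 against -0.00 over all tested genes, with 5 positive and 3 negative values. The median size of the change regardless of sign was 0.18, against 0.19 over all tested genes.

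**Figure D2:**
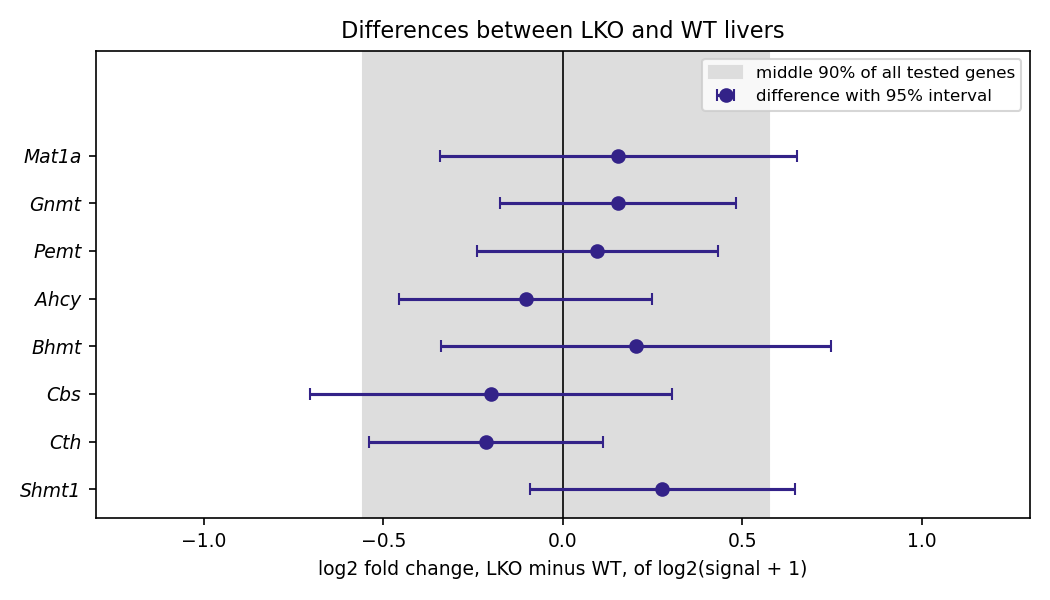
Log2 fold change of each gene (x axis, LKO minus WT, on log2(signal + 1)), with points for the limma estimate and bars for its 95% interval. The grey band holds the middle 90% of all tested genes, from -0.56 to 0.58, every interval crosses 0 and all 8 points lie inside the band.

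As a share of all signal in a library, the 8 genes together made up 1.18%, 1.27% and 1.25% in wild type livers 1, 2 and 3 and 1.22%, 1.12% and 1.46% in LKO livers 1, 2 and 3. LKO liver 3 had the highest share and LKO liver 2 the lowest, so the spread was wider in LKO (1.27% ± 0.17) than in wild type (1.23% ± 0.05). In LKO liver 2 the 10 most abundant genes of the library took 24.2% of the signal, against 18.7% to 21.02% in the other 5.

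Levels were compared between genes as signal per kilobase of the longest coding transcript in GENCODE M21. In wild type the order was Bhmt (1478 ± 307 per kilobase, SD, n = 3), Gnmt (1359 ± 167), Ahcy (1328 ± 89.2), Mat1a (1285 ± 186), Pemt (299 ± 61.2), Cth (165 ± 21.2), Shmt1 (81.9 ± 14.9) and Cbs (70.9 ± 17.7). The first 4 overlapped one another over the 6 livers and formed a top group, and Pemt was below each of them in 6 of 6 livers. Cth was below Pemt in 6 of 6 livers. In LKO the order of means was the same except that Mat1a (1450 ± 342) came before Ahcy (1238 ± 125). The places of Mat1a, Cth, Shmt1 and Cbs depend on the transcript chosen. Per kilobase of the shortest complete coding transcript, Mat1a reached 1389 in wild type and 1568 in LKO, above Gnmt and Ahcy in both groups. On that scale Cbs reached 184, Shmt1 178 and Cth 165 in wild type. Mat2a, at 17.2 ± 2.34 per kilobase of its longest transcript in wild type, was below all 8.

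The ratio of Bhmt to Cbs sets remethylation by betaine beside entry into transsulfuration, as transcripts only. The log2 ratio of their signals was 2.60, 3.49 and 3.11 in wild type livers 1, 2 and 3 and 3.03, 3.26 and 4.13 in LKO livers 1, 2 and 3. LKO liver 3 was the highest, with 17.6 times as much Bhmt as Cbs signal, and the other two LKO livers lay inside the wild type range. The difference of the means was 0.40, p = 0.5 in the same two-sided exact permutation test. It was 0.07 without LKO liver 3, 0.17 without wild type liver 1, 0.62 without wild type liver 2 and 0.62 without LKO liver 1.

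Taking the orders within both groups together, 5 of the 8 genes shared their order of livers with at least 1 other of the 8. Bhmt, Cbs and Cth each had a combined order of their own, although in the LKO livers alone Bhmt had the order of Gnmt and Ahcy. Mat1a, Pemt and Shmt1 had one order in both groups: wild type liver 2 was above liver 1 and liver 1 above liver 3, and LKO liver 2 was above liver 3 and liver 3 above liver 1. This double order was seen in 3.23% of all tested genes. Gnmt and Ahcy shared another, with wild type livers ranked 2, 3, 1 and LKO livers 3, 1, 2, which was seen in 2.83% of tested genes. Cbs and Cth were both lowest in wild type liver 2 and highest in LKO liver 1, the reverse of Mat1a in those 2 livers. These orders were noticed after the values were seen, and genes measured in one library share its depth and scaling.

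**Figure D3:**
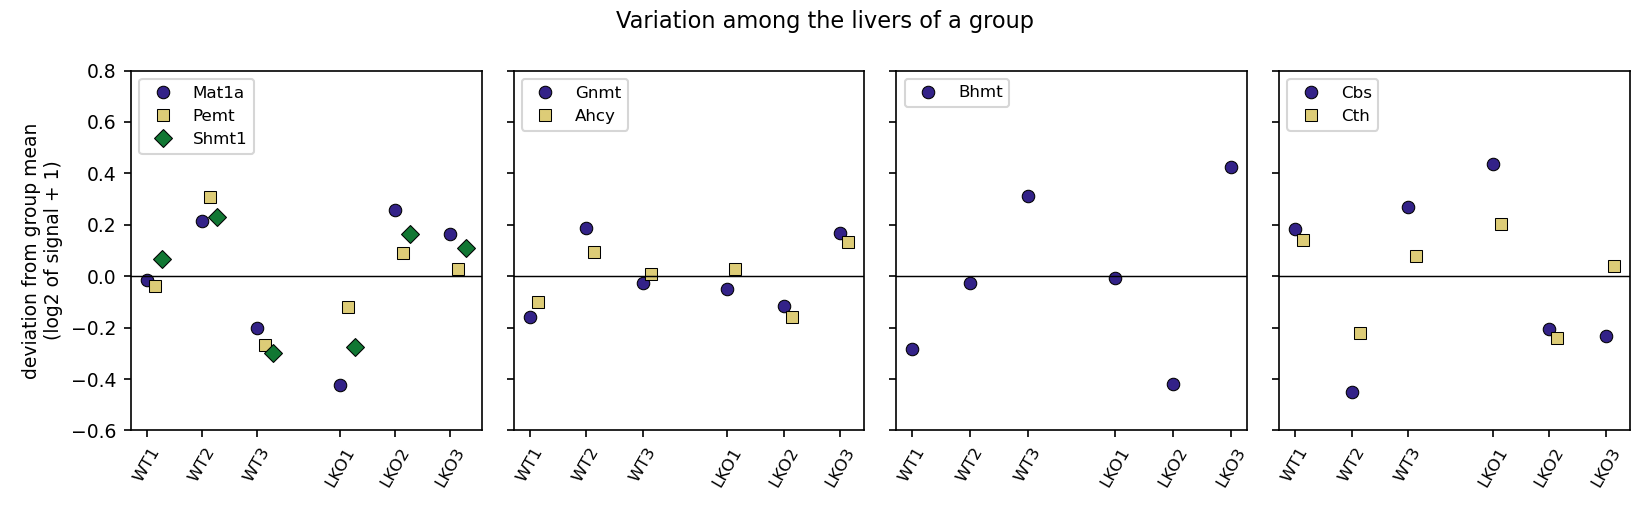
Deviation of each liver from its group mean (y axis, log2(signal + 1)). Mat1a, Pemt and Shmt1 share one order of livers, and Gnmt and Ahcy share another. Bhmt is shown alone, and Cbs and Cth are shown together although their orders differ. Mat1a, Pemt and Shmt1 were highest in WT2 and LKO2, where Cbs and Cth had negative deviations (-0.45 and -0.22 in WT2, -0.20 and -0.24 in LKO2).

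Likeness over the 6 livers was measured as the root mean square difference between the centred log2 values of 2 genes. Among the 28 pairs of the 8 genes it was smallest for Mat1a and Shmt1 (0.11), followed by Pemt and Shmt1 (0.13) and Gnmt and Ahcy (0.14). It was largest for Mat1a and Cbs (0.58). Among 6916 other genes with a mean signal of at least 10, the 2 nearest to Gnmt were Dmgdh (0.04) and Gcat (0.05), where the median gene was at 0.23. Dmgdh encodes the dehydrogenase that turns dimethylglycine into sarcosine, and Gcat encodes a mitochondrial enzyme that splits 2-amino-3-ketobutyrate into glycine and acetyl-CoA. Dmgdh signal was 472, 570 and 522 in wild type and 571, 517 and 635 in LKO, with the same rank order of livers in each group as Gnmt.

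The genes nearest to the other 7 came from outside the lists described here. They were Arfrp1 (0.06) and Glrx (0.06) for Mat1a, Gbe1 (0.04) and Sc5d (0.05) for Pemt, and Crcp (0.05) and Usp1 (0.05) for Shmt1. For Ahcy they were Cycs (0.03) and Emc4 (0.03), and for Cth Nlrx1 (0.04) and Pnpt1 (0.06). Bhmt and Cbs had no neighbour as close, with Secisbp2 (0.11) and Ube2s (0.13) for Bhmt and Celf2 (0.11) and Dnm1l (0.11) for Cbs. The median gene was also farther from them, at 0.36 for Bhmt and 0.37 for Cbs, against 0.21 for Ahcy and 0.32 for Mat1a. With 6 livers and this many genes, close neighbours are found for most patterns, and no test was made.

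Around the 8 genes, 6 lists of connected pathways held 97 tested genes, of which 1 rose and 2 fell in LKO, or 3.09% against 3.51% of all tested genes. Counts at an unadjusted p under 0.05 in these lists stand against 18.4% of all tested genes. The median log2 fold change of the 97 was -0.10, against -0.00 over all. In the rest of the methionine cycle and salvage pathway, 0 of 17 genes were called in limma, 0 in limma-voom, and 3 had an unadjusted p under 0.05. Adk, the adenosine kinase that removes the other product of the Ahcy reaction, averaged 654 ± 7.79 in wild type and 655 ± 27.3 in LKO. Bhmt2, a paralogue of Bhmt that uses S-methylmethionine, averaged 239 ± 17.96 and 248 ± 13.7.

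Of 23 tested folate cycle genes, 0 were called in limma and 0 in limma-voom, and 5 had an unadjusted p under 0.05. Aldh1l1, which oxidises 10-formyltetrahydrofolate and was the most abundant gene of the list, was 1539, 1685 and 1478 in wild type and 1992, 1912 and 2405 in LKO. The LKO livers were all above the wild type livers, but the log2 fold change of 0.42 (SE 0.15) did not pass the test (adjusted p 0.159 in limma). Ftcd, of histidine breakdown into the folate pool, had a log2 fold change of 0.07 (SE 0.14). In the list of serine and glycine supply, 0 of 10 genes were called in either fit and 2 had an unadjusted p under 0.05. Its most abundant genes, the serine dehydratase gene Sds and the glyoxylate reductase gene Grhpr, had log2 fold changes of 0.25 and -0.06.

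In the list of choline, betaine and phospholipid genes, 1 of 19 genes fell and 18 did not pass. This was Chpt1, the cholinephosphotransferase of the pathway that makes phosphatidylcholine from choline, parallel to the Pemt reaction. Its signal was 202, 206 and 256 in wild type and 111.5, 74.9 and 102 in LKO, so the groups were far apart. The log2 fold change was -1.21 (limma, SE 0.16 and adjusted p 0.0047), and it kept its call with each liver left out in turn, between -1.32 and -1.04. The median of the list was -0.19, and 15 of 19 values were negative, where 49.8% of all tested genes had positive values. Without wild type liver 3 the list median was -0.07. With any other liver left out it ran from -0.22 to -0.15.

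Among 14 other SAM-dependent methyltransferases, Nnmt rose, Carnmt1 fell and 12 did not pass. Nnmt encodes nicotinamide N-methyltransferase, which uses SAM to methylate nicotinamide. Its signal was 162, 134 and 102 in wild type livers 1, 2 and 3 and 217, 210 and 270 in LKO livers 1, 2 and 3, with no overlap. The log2 fold change was 0.82 (limma, SE 0.17 and adjusted p 0.0329), and the call was lost without wild type liver 2 or 3 or LKO liver 2 or 3 (adjusted p 0.0986, 0.0706, 0.0705 and 0.121) and with library size as the scaling (0.0568).

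Carnmt1 encodes carnosine N-methyltransferase and was a low gene, with 13.9, 10.98 and 7.89 units in wild type and 2.73, 3.91 and 2.72 in LKO. Each wild type liver was above each LKO liver. It had a log2 fold change of -1.51 (limma, SE 0.23 and adjusted p 0.0077) and kept its call with each liver left out in turn. Inmt, named after its value was seen, encodes another small-molecule methyltransferase and missed the threshold at an adjusted p of 0.0502 in limma, with a log2 fold change of -0.74 (SE 0.17) and no overlap between the groups. It was called with RLE scaling, with the replicate number as a block and without LKO liver 1.

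Downstream of Cth, 14 tested genes of cysteine, sulfide and glutathione metabolism gave 0 calls in limma, 0 in limma-voom and 7 unadjusted p-values under 0.05, where 18.4% of all tested genes had one. The median log2 fold change was -0.24, the lowest of the 6 lists, with 10 of 14 values negative. With the replicate number as a block, Csad and Suox were called lowered, and Suox also without LKO liver 1. Csad signal was 459 in wild type liver 3 and at most 132 in any other liver. Cdo1, which commits cysteine to sulfinate and taurine, averaged 1590 ± 218 in wild type and 1628 ± 232 in LKO. Got1, the cytosolic aspartate aminotransferase, averaged 438 ± 118 and 725 ± 191, and its log2 fold change was 0.73 (limma, SE 0.23 and adjusted p 0.128).

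**Figure D4:**
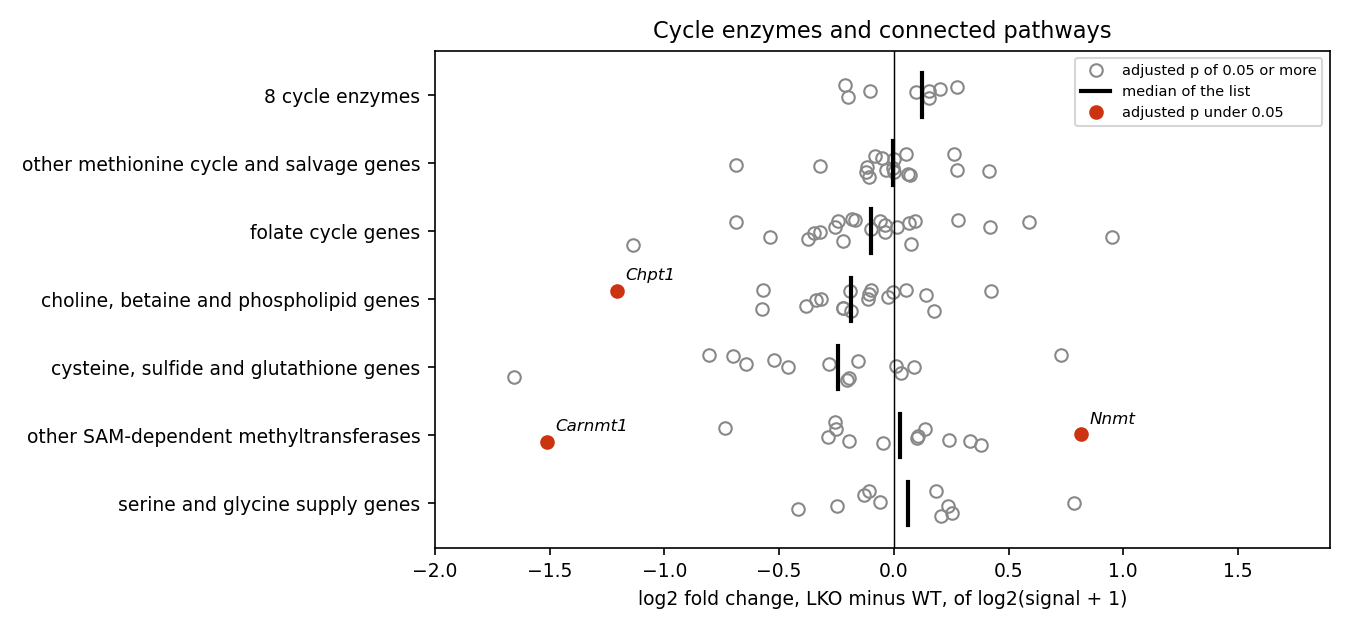
Log2 fold change (x axis, LKO minus WT, on log2(signal + 1)) of the 8 cycle enzymes and of each tested gene in 6 connected lists, 1 point per gene, with vertical scatter only for legibility. Filled red points are the 3 genes with an adjusted p under 0.05 (Chpt1, Carnmt1 and Nnmt), and black bars are list medians.

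Of the 97 tested pathway genes, 11 held a let-7 seed match in the longest 3′ untranslated region, and 3 of these held the 8mer. Over all 10703 tested genes with an annotated region, 17.0% held a match and 3.67% held the 8mer, so the lists are not richer in matches. The site of Carnmt1, the one gene of the 11 that was called, and the 3 8mer sites are shown because they are places where let-7b and let-7c could pair with transcripts around the cycle. They are GENCODE M21 transcript sequences (GRCm38), 5′ to 3′, with the seed match in capitals.
Carnmt1 (chr19:18705068-18705090, plus strand): ctttaattttCTACCTCtagaga
Chdh (chr14:30037641-30037664, plus strand): atgccagtcaCTACCTCAtgccaa
Etnk1 (chr6:143206890-143206913, plus strand): gcagcttctgCTACCTCAcaggga
Agxt2 (chr15:10410095-10410118, plus strand): tggagccaccCTACCTCAgggttt
Carnmt1, which fell, holds a 7mer. Chpt1 and Nnmt held no match. The genes with an 8mer, the choline dehydrogenase gene Chdh, the ethanolamine kinase gene Etnk1 and the aminotransferase gene Agxt2, did not pass the test. Their log2 fold changes were -0.34 (limma, SE 0.14 and adjusted p 0.241) for Chdh, -0.11 for Etnk1 and -0.13 for Agxt2.

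Wild type liver 3 stood apart in several of these pathway genes. Csad, of taurine synthesis, was 459 in that liver against 40.0 to 132 in the other 5, and the choline kinase gene Chka was 41.2 against 7.94 to 12.0. Gclc, the catalytic subunit of glutamate-cysteine ligase, was 430 against 124 to 197. These 3 genes, named after their values were seen, have a mean of at least 5 and were over 2 times as high in that liver as in each of the others. Over all 8649 tested genes with such a mean, 25 stood out in this way in wild type liver 3, 14 in LKO liver 2 and between 1 and 5 in each of the other 4. None of the 8 cycle enzymes did.

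Markers of other cell types were read beside these genes. Over all tested genes, 3.51% were called in limma, 1.82% as raised, and 18.4% had an unadjusted p under 0.05. Of 12 Kupffer cell and macrophage markers, 5 were raised and 0 lowered in limma, and 11 had an unadjusted p under 0.05. Their median log2 fold change was 0.81, with a summed signal of 139 to 157 in wild type and 209 to 304 in LKO. None of the 12 was at 0 in all livers, and the most abundant, Clec4f, averaged 29.6 ± 3.59 in wild type and 53.7 ± 9.74 in LKO. The summed endothelial markers (most abundant Clec4g and Kdr) ran from 126 to 144 in wild type and 160 to 181 in LKO, with a median of 0.35. Stellate cell markers (Dcn and Reln) ran from 170 to 207 and from 202 to 228, with a median of 0.21. Of these 2 lists of 10 genes each, 0 were called in limma, and 5 and 2 had an unadjusted p under 0.05.

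The only tested T, B and NK cell marker, Cd4, was raised, with a list sum of 1.14 to 2.65 in wild type and 4.32 to 7.91 in LKO. The 3 tested cholangiocyte markers (Spp1 the most abundant) gave 0 calls in limma and 1 unadjusted p under 0.05, with sums of 26.1 to 50.8 and 35.9 to 70.7. The neutrophil markers S100a8 and S100a9 summed to at most 0.331 units and were not tested. Hepatocyte markers gave 0 calls among 9 in limma and 4 unadjusted p-values under 0.05, with a median of 0.27. Their most abundant gene, Alb, ran from 87753 to 152823 units.

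Among hepatocyte zones, 1 of 11 pericentral genes was called in limma, as raised, and 6 had an unadjusted p under 0.05. Cyp2e1 and Rgn were the most abundant of this list. Its median was 0.38, with sums of 12863 to 16428 in wild type and 13296 to 14807 in LKO. Of 11 periportal genes (Pck1 and Ass1) 0 were called in limma and 3 had an unadjusted p under 0.05, with a median of 0.21. The summed periportal signal ran from 16567 to 17328 in wild type and 18735 to 22244 in LKO. The 13 transcripts of the mitochondrial genome (mt-Co1 and mt-Cytb the most abundant) gave a median of -0.31, with 13 negative and 0 positive values. Of these transcripts 0 were called in limma and 3 had an unadjusted p under 0.05. What part these differences have in the values of the 8 enzymes and in the changes of Chpt1, Carnmt1 and Nnmt was not tested.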

How the data were processed

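Per the submitters' processing notes, the tools were STAR 2.5.1, RSEM 1.2.22, Trimmomatic 0.36, bcl2fastq 2.17, Picard 1.84 and edgeR, with build mm10 and no roles given. Libraries were stranded mRNA, per the labels' protocols. The authors deposited 1 signal per gene and mouse, in a unit the headers do not name. It behaved as an estimated count times one factor per library. Of the positive values 82.04% to 83.1% were whole reads within 0.005. A count model was planned only for whole counts, so it was not the main fit. As an alternative, limma-voom was run on the estimated counts.

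Genes with a mean signal of at least 1 were kept, and limma 3.58.1 (R 4.3.3) was run on log2(signal + 1), two-sided, with a mean-variance trend and no block. Gene names that were missing or turned into dates (41 rows) were repaired by identifier where GENCODE M21 allowed (26). Copies were sought with BLAST 2.17.0. The 8 genes, the pathway and marker lists and the tests were chosen with earlier results of these data known. Named pathway genes were up to 4 called members of each list by smallest p, or the 2 most abundant where none was called, and each cycle enzyme's 2 nearest patterns. From each marker list up to 2 of the most abundant genes were named, and some results for single genes are not reported here. The fit was also run on 10 simulated sets with known changes, and the outcome is not reported here. Nothing says whether mice shared a litter, so p-values measure the spread between these 6 samples. Alternatives were 2 other scalings, 2 filters, a pseudocount of 0.1, limma-voom, a replicate block, leaving out each liver, and summed copies.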

Additional observations from a re-analysis of the deposited data

How the results depend on the processing

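The 8 cycle enzymes gave 0 calls in each of the 14 alternatives run, with a smallest adjusted p in limma of 0.196, for Shmt1 without LKO replicate 1. Of their log2 fold changes, 2 changed sign, Bhmt without LKO replicate 3 (-0.0087, range over the left-out livers -0.0087 to 0.41) and Pemt without wild type replicate 3 (-0.038, range -0.038 to 0.25). Over all genes, 392 were called, and 167 to 540 with 1 liver left out: 258, 167 and 219 without wild type livers 1, 2 and 3, and 540, 199 and 173 without LKO livers 1, 2 and 3. The list of other SAM-dependent methyltransferases had 2 calls, 1 with library size as the scaling, 3 with RLE scaling and with the replicate block, and 1 to 3 with a liver left out. The cysteine, sulfide and glutathione list had 0 calls, 2 with the replicate block and 0 to 1 with a liver left out. Among uncalled genes near 0, Adk (also -0.00032 with RLE scaling), Bhmt2, Cdo1 and Ftcd changed sign with library size as the scaling (-0.067, -0.017, -0.036 and -0.0015) and with a liver left out (-0.017 to 0.037, -0.0061 to 0.10, -0.050 to 0.15 and -0.076 to 0.16). The causes were not tested. Deviations of same-numbered livers correlated at 0.05, 0.03 and 0.05 over all tested genes, so the numbers were not taken as pairs, although each liver correlated best with its own number. With the replicate block 416 genes and 0 of the 8 were called.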
